A study of Bos grunniens with 18 samples.

Results

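The genes examined here encode the proteasome, the protease complex that degrades ubiquitin-tagged proteins, together with its activators, its inhibitor and the chaperones that help to assemble it. They were chosen by symbol, as every gene named PSMA to PSMG followed by a number, leaving out the interferon-induced subunits PSMB8 and PSMB9. The rule found 50 identifiers among the 22183 in the gene table, which carry 46 distinct symbols and 4 second loci that share a symbol with another identifier. Testis tissue came from 9 healthy male yaks (Bos grunniens) of 1 cooperative, 3 castrated at 6 months (Y6M), 3 at 18 months (Y18M) and 3 at 4 years (Y4Y). The labels name no strain, genotype or drug that sets the ages apart, and all animals were anesthetized for the surgery. Another label gives infancy for the oldest animals, adolescence for the youngest and adulthood for those of 18 months, which goes against the stated ages and was not used. Total RNA depleted of ribosomal RNA was sequenced from whole tissue. The 9 libraries held between 22950627 and 33123850 estimated counts.

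A proteasome consists of a barrel-shaped core, the 20S particle, built of alpha rings that gate it and beta rings that hold the proteolytic sites, and of caps that feed it. The 19S cap binds ubiquitin chains, removes them and unfolds the protein, whereas the activators of the PSME family open the core without using ATP. In the mouse testis, germ cells in meiosis and later replace the alpha subunit PSMA7 by PSMA8, and the activator PSME4, also called PA200, has been tied to the removal of core histones in spermatids. Interferon can exchange the catalytic beta subunit PSMB7 for PSMB10, and the heterodimer of PSME1 and PSME2 is likewise known from immune tissues.

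The tissue label was checked against marker genes of testis cell types. The summed level of 10 meiotic prophase markers, such as SYCP1, lay between 10.2 and 21.4 CPM (a gene's counts relative to the library total, scaled by TMM) at 6 months, between 601.6 and 1237 CPM at 18 months and between 1112 and 1314 CPM at 4 years. The 8 round spermatid markers summed to 6.46 to 8.37 CPM, 228.4 to 1611 CPM and 1579 to 1712 CPM at the 3 ages, and the 8 elongating spermatid markers to 49.5 to 56.6 CPM, 345.9 to 4167 CPM and 4295 to 5921 CPM. The 8 Sertoli cell markers summed to 8104 to 9621 CPM, 1477 to 4257 CPM and 1144 to 1206 CPM, and no test was made on any of these sums. The 6 Leydig cell markers held 14630 to 21140 CPM, 2532 to 5823 CPM and 2417 to 4341 CPM, and no marker of any list was at 0 in all libraries. The 18-month libraries differed most among themselves, with a correlation between their log2 levels of 0.814 to 0.954, against at least 0.976 within either other age. Replicate 1 of that age held the most meiotic and spermatid marker RNA, replicate 3 was between, and replicate 2 held the least.

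Between 6 months and 4 years the proteasome genes split. PSMA8 rose 39.9-fold, PSME4 6.43-fold, PSMF1 4.36-fold and PSME3 3.42-fold, whereas PSME2 fell 8.47-fold, PSME1 7.88-fold, PSMB10 7.47-fold and PSMA7 6.21-fold. The size for PSMA8 moved by over 1.5 times when replicate 2 of 6 months was left out (log2 6.47 in place of 5.32). In what follows, a change written with ± is a log2 fold change and its SE, unless a share or a level is named. Of the 50 identifiers, 47 passed the filter on low counts. Of these 47, 12 were higher at 4 years and 22 lower, at an adjusted p under 0.05 in edgeR's quasi-likelihood test with all 9 libraries, and 13 passed in neither direction. Over all 16742 genes tested, 73.9% were called, 36.7% higher and 37.2% lower, so that 34 calls among 47 proteasome genes is a share close to that of all genes. The median log2 fold change of the 47 was -0.26, against -0.06 over all genes, and its median size regardless of sign was 0.84, against 1.56. A change of at least 2-fold was called in 10 proteasome genes upward and 11 downward, where 31.5% and 30.2% of all genes passed. With the counts scaled by library size alone, 14 proteasome genes were higher and 14 lower.

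Between 6 and 18 months, 10 of the 47 were higher, 19 lower and 18 not called, where 59.9% of all genes were called, 32.7% higher and 27.1% lower. The median log2 fold change was -0.24, against 0.02 over all genes. A change of at least 2-fold was called in 5 upward and 8 downward, where 27.7% and 20.2% of all genes passed, and the libraries of the 2 ages did not overlap in 33 of the 47, against 65.1% of all genes. This split moved with the scaling. Library size alone gave 17 proteasome genes higher and 7 lower and shifted the median of all genes to 0.43, with 72.6% of all calls higher in place of 54.7%. PSMB6 was the called member whose sign turned under that scaling. Both comparisons use the same 6-month animals, so their values stand side by side below and are not separate evidence.

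Between 18 months and 4 years none of the 47 was called by edgeR, and over all genes 1 of 16742 was (0.00597%). At an unadjusted p under 0.05, 1 proteasome gene was higher and 13 were lower by edgeR, where 21.3% of all genes passed. DESeq2 called 3 of the 47, all lower, where it called 5.98% of all genes. The libraries of these ages did not overlap in 20 of the 47, against 25.4% of all genes. Without replicate 1 of the 18-month animals, 5 proteasome genes were higher and 11 lower, where 33% of all genes were called, with the remaining pair at that age assumed to vary like the other groups. That replicate was the 18-month library closest to the 4-year animals in PSMA7, PSMB10, PSME3 and PSME4, so leaving it out widens those differences.

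**Figure D1:**
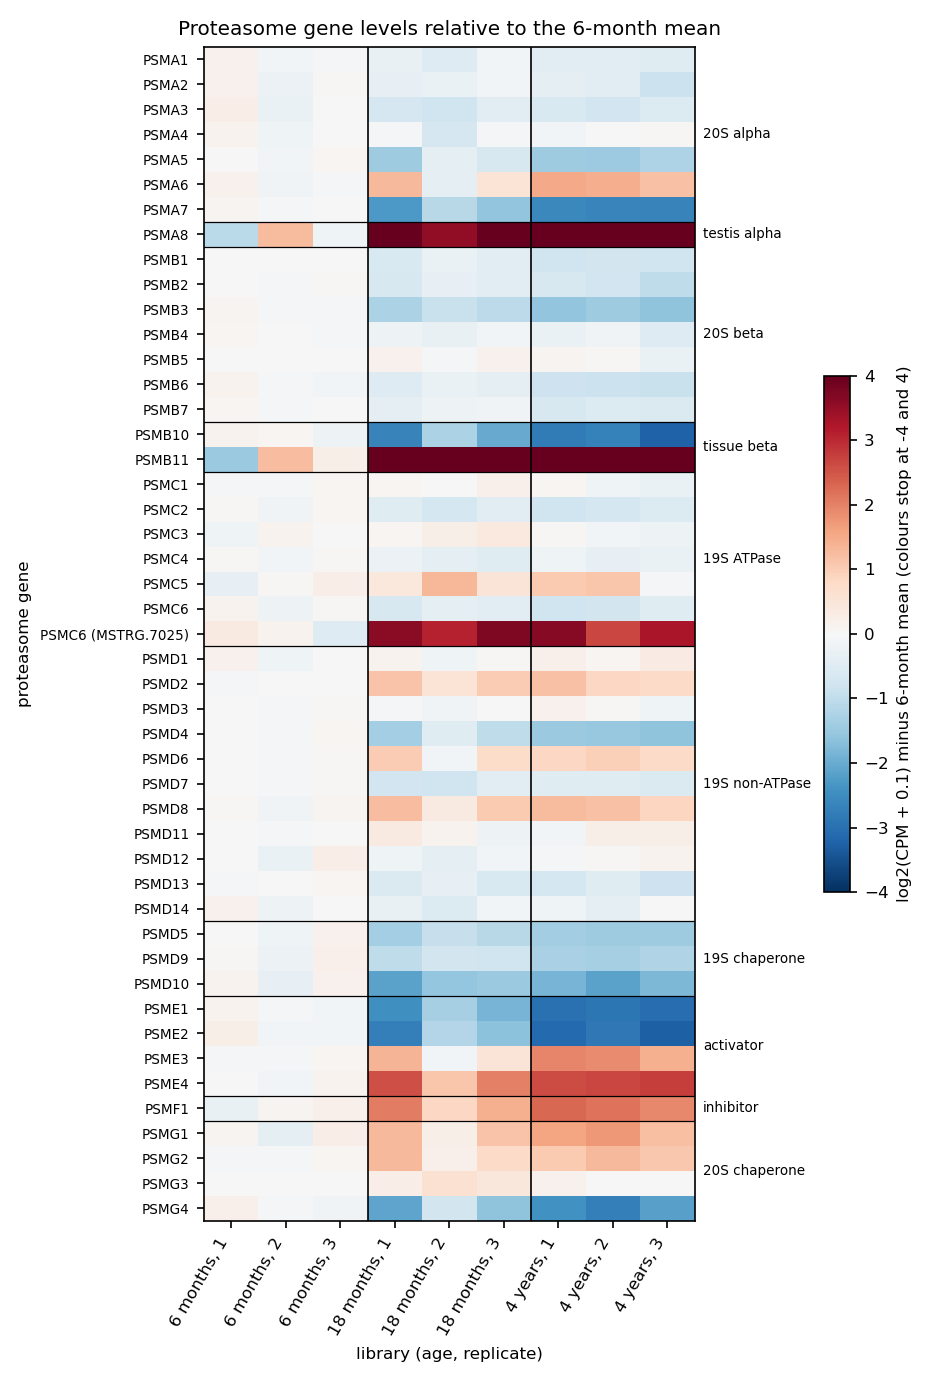
Level of each of the 47 tested proteasome genes in each library, as log2(CPM + 0.1) minus the mean of the 6-month libraries, grouped by role, with black vertical lines between the ages. PSMA8, PSMB11 and PSME4 are red at the older ages, PSMA7, PSMB10, PSME1 and PSME2 blue, and among the 18-month libraries replicate 2 is the palest for these genes other than PSMB11, whose colours reach the end of the scale.

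PSMA8 (ENSBTAG00000017698), the testis alpha subunit, had very few reads at 6 months. Its estimated counts there were 3, 24 and 7, which is 0.127, 1.04 and 0.32 CPM. The 18-month animals had 18.0, 5.44 and 13.9 CPM and the 4-year animals 19.7, 19.7 and 20.5 CPM. Every older library was above every 6-month library, and the 4-year animals were nearly alike while those of 18 months spread over a wide range. The log2 fold change from 6 months was 4.64 ± 0.70 (SE, adjusted p = 0.00064) at 18 months and 5.32 ± 0.72 (adjusted p = 0.00023) at 4 years, the highest of the 47 in each case. Leaving out replicate 2 of 6 months, which held the most PSMA8 reads of that age, gave 5.79 and 6.47, and over all single libraries left out the values ranged from 4.18 to 5.79 and from 4.86 to 6.47. From 18 months to 4 years it was 0.68 ± 0.57 (adjusted p = 0.458), although the 4-year libraries lay above the 18-month ones. The order of the 18-month replicates in PSMA8 was that of the meiotic markers, and per 1000 CPM of the meiotic list PSMA8 stood at 12.4, 48.7 and 19.5 CPM at 6 months, where both are low, at 14.6, 9.04 and 13.8 CPM at 18 months and at 17.7, 16.2 and 15.6 CPM at 4 years. Relative to this list the 6-month libraries overlapped with both older ages. In whole tissue, more cells of a type and more RNA per cell cannot be told apart.

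PSMA7 (ENSBTAG00000005127), the alpha subunit in whose place PSMA8 stands in mouse germ cells, went the other way. It had 240.4, 210.3 and 220.8 CPM at 6 months, 45.5, 103.5 and 74.1 CPM at 18 months and 37.6, 35.6 and 34.9 CPM at 4 years. No 2 ages overlapped. The log2 fold change was -1.59 ± 0.27 (adjusted p = 0.00114) at 18 months and -2.64 ± 0.28 (adjusted p = 8.65e-05) at 4 years, both against 6 months. Between 18 months and 4 years it was -1.05 ± 0.27 (adjusted p = 0.174), which passed in DESeq2 (-0.95, adjusted p = 0.0226) and without replicate 1 of 18 months (adjusted p = 0.00612). That replicate was the library of its age closest to the 4-year animals, so leaving it out widens the difference.

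Levels of different genes were compared per transcript length, in the FPKM that the authors deposited. PSMA8 made up 0.307% ± 0.31 (SD, n = 3) of the summed FPKM of PSMA7 and PSMA8 at 6 months, 20.4% ± 14.1 at 18 months and 42.6% ± 1.37 at 4 years. The 18-month animals held 34.7%, 6.57% and 20.1%. PSMA8 RNA thus stayed below PSMA7 RNA in every library, at 4 years with 26.2 FPKM ± 1.76 against 35.3 FPKM ± 0.91. The log2 ratio of PSMA8 to PSMA7 counts within a library was -9.21 ± 1.52 at 6 months, -2.67 ± 1.47 at 18 months and -0.85 ± 0.08 at 4 years. It differed across the ages by an exact permutation test over the 280 groupings of the libraries (p = 0.00357, and 0.0107 adjusted over 3 ratios), while a pair of ages cannot give less than p = 0.1, which was reached in each pair. Such a ratio does not depend on how libraries are scaled.

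The other 6 alpha subunits form the same rings and moved less. PSMA5 had log2 fold changes of -0.76 ± 0.24 at 18 months and -1.38 ± 0.25 at 4 years (adjusted p = 0.0235 and 0.000955), and PSMA3 of -0.66 ± 0.19 at both (adjusted p = 0.0152 and 0.0119). PSMA1 and PSMA2 were also lower at 4 years, and PSMA4 was not called. Of 15 alternative fits, the 18-month call was lost in 4 for PSMA5 and 3 for PSMA3, and the 4-year call in 4 for PSMA3, 8 for PSMA1 and 7 for PSMA2. PSMA6 (ENSBTAG00000009683) was the only constitutive core subunit called higher in any comparison of the fit with all libraries. It had 108.9, 89.4 and 95.5 CPM at 6 months, 242.1, 74.3 and 143.6 CPM at 18 months and 278.0, 265.6 and 220.8 CPM at 4 years. The 4-year libraries stood above all 6-month libraries, whereas replicate 2 of 18 months lay below them. PSMA6 changed by 0.65 ± 0.36 at 18 months (adjusted p = 0.149) and rose by 1.38 ± 0.37 at 4 years (adjusted p = 0.00769). Its estimated counts are not all whole numbers, so reads may have been shared with another locus. The second loci of PSMA2 had at most 3 counts and that of PSMA7 at most 15 counts in any library, and these 3 identifiers were not tested.

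**Figure D2:**
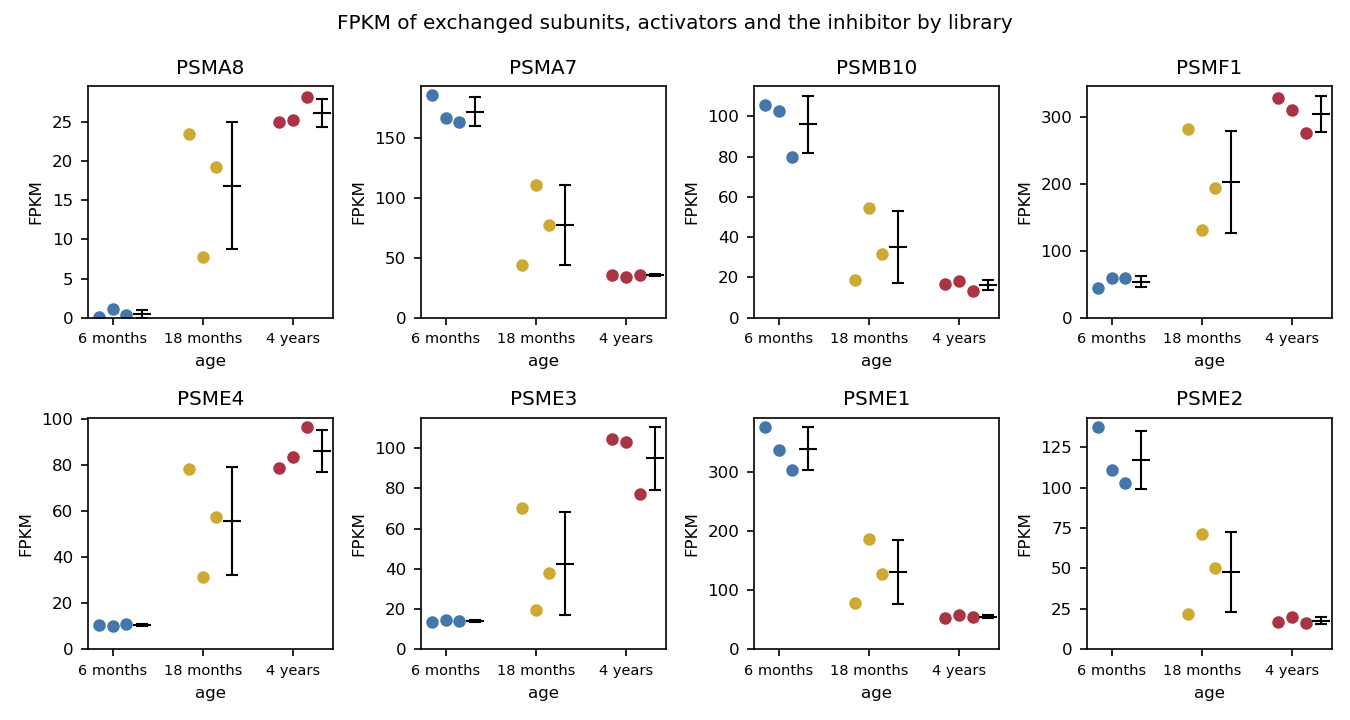
FPKM of 8 proteasome genes in each library (points) at 6 months, 18 months and 4 years, with the mean and SD of 3 animals as a black bar, on axes that start at 0 and differ between panels. PSMA8, PSMF1, PSME4 and PSME3 are high at 4 years and PSMA7, PSMB10, PSME1 and PSME2 at 6 months, and in every panel replicate 2 is the 18-month library closest to the 6-month animals.

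None of the 7 constitutive beta subunits was called higher, where 32.7% of all genes were at 18 months and 36.7% at 4 years. PSMB3 (ENSBTAG00000003830), a beta subunit without catalytic activity, fell by 1.06 ± 0.16 at 18 months and by 1.55 ± 0.17 at 4 years on the log2 scale (adjusted p = 0.000708 and 9.16e-05). PSMB6, which carries the caspase-like site, fell by 0.39 ± 0.15 and 0.87 ± 0.15 (adjusted p = 0.0468 and 0.000841), and its value at 18 months was 0.01 when libraries were scaled by size alone. PSMB2 fell by 0.45 ± 0.16 and 0.81 ± 0.16 (adjusted p = 0.035 and 0.00175). PSMB1 had log2 fold changes of -0.43 ± 0.15 and -0.78 ± 0.15 (adjusted p = 0.0359 and 0.00163). The 18-month calls of these genes were near the threshold, and of 15 alternative fits they were lost in 13 for PSMB1, 11 for PSMB2 and 13 for PSMB6, RLE scaling among them, while the 4-year calls held in all 15. PSMB5, with the chymotrypsin-like site, had log2 fold changes of 0.09 ± 0.16 and -0.03 ± 0.16 (adjusted p = 0.648 and 0.872). PSMB7 (ENSBTAG00000003067), with the trypsin-like site, had 197.6, 176.7 and 185.7 CPM at 6 months, 143.9, 163.5 and 168.7 CPM at 18 months and 120.4, 128.5 and 125.1 CPM at 4 years. In CPM these ages did not overlap, whereas in FPKM the 6-month libraries (140.6 to 154.5 FPKM) overlapped with those of 18 months (143.9 to 180.0 FPKM). PSMB7 was called at 4 years (-0.58 ± 0.15, adjusted p = 0.00582) and not at 18 months (-0.23 ± 0.15, adjusted p = 0.191). With library size alone the 4-year call was lost (adjusted p = 0.14).

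PSMB10 (ENSBTAG00000018040), the interferon-induced form that can take the place of PSMB7, fell much further. It had 132.2, 125.8 and 104.1 CPM at 6 months, 18.9, 49.4 and 29.7 CPM at 18 months and 17.3, 18.4 and 12.7 CPM at 4 years, with no overlap between ages. The log2 fold change was -1.89 ± 0.33 (adjusted p = 0.00139) and -2.90 ± 0.35 (adjusted p = 0.000136) against 6 months, and -1.02 ± 0.33 (adjusted p = 0.174) from 18 months to 4 years. PSMB10 made up 39.5% ± 2.96 (SD, n = 3) of the FPKM of PSMB7 and PSMB10 at 6 months, 16.7% ± 5.98 at 18 months and 11.5% ± 1.95 at 4 years. The log2 ratio of their counts went from -0.63 ± 0.18 to -2.39 ± 0.61 and -2.97 ± 0.29 (exact permutation test, p = 0.0107, the same after adjustment). PSMB8 and PSMB9, the partners of PSMB10 in the immunoproteasome, had log2 fold changes of -2.81 ± 0.45 and -2.33 ± 0.37 at 4 years (adjusted p = 0.000516 and 0.000526). The 7 macrophage and leukocyte markers summed to 213.3 to 424.2 CPM at 6 months, 156.7 to 313.7 CPM at 18 months and 79.3 to 100.6 CPM at 4 years, and their part in the fall of these subunits was not tested.

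PSMB11 (ENSBTAG00000054080), the beta subunit known from the thymus of mouse and human, rose from a very low level. Its estimated counts were 0, 13 and 5 at 6 months, 208, 126 and 171 at 18 months and 229, 160 and 126 at 4 years. All older libraries stood above the 6-month ones, and the log2 fold change was 4.38 ± 0.81 (adjusted p = 0.00173) at 18 months and 4.45 ± 0.81 (adjusted p = 0.00106) at 4 years. Without replicate 2 of 6 months these were 5.59 and 5.66, and without replicate 1 of that age 3.8 and 3.86. Even so, it reached only 3.503% ± 0.61 and 3.71% ± 0.85 of the FPKM of PSMB5 and PSMB11 at these ages. PSMB11 lies next to PSMB5 in a RefSeq yak annotation (Bosgru_T2T1.0) and its fold changes stand apart from those of PSMB5 given above.

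**Figure D3:**
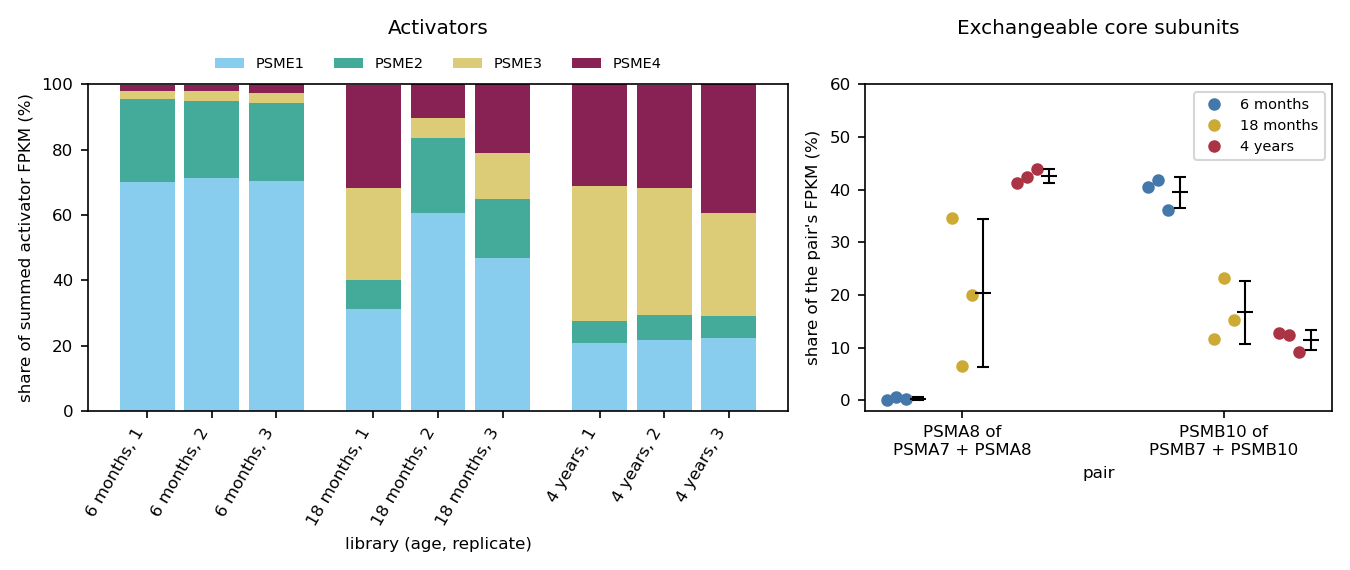
Left, share of each activator in the summed FPKM of PSME1 to PSME4 in each library, as stacked bars, and right, share of PSMA8 in PSMA7 and PSMA8 and of PSMB10 in PSMB7 and PSMB10, with each library as a point and the mean and SD of 3 animals as a black bar. PSME1 holds 70.6% of the activator FPKM at 6 months and 21.7% at 4 years, and the PSMA8 share reaches 42.6%.

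The activators moved in opposite directions. All 4 were called at 4 years, 2 in each direction, where 73.9% of all genes were called. No library of 4 years overlapped with one of 6 months, which was so for 36 of the 47 proteasome genes and 83% of all genes. PSME4 (ENSBTAG00000020262) had 94.4, 88.1 and 104.6 CPM at 6 months, 565.6, 204.7 and 386.8 CPM at 18 months and 582.1, 608.7 and 656.6 CPM at 4 years. The log2 fold change was 2.01 ± 0.33 (adjusted p = 0.000967) at 18 months and 2.69 ± 0.34 (adjusted p = 0.000172) at 4 years. From 18 months to 4 years it was 0.68 ± 0.32 (adjusted p = 0.252, and 0.021 without replicate 1 of 18 months, the one closest to 4 years). Unlike PSMA8, PSME4 was well detected in the 6-month testis, where meiotic and spermatid markers were low.

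PSME3 (ENSBTAG00000019918), the nuclear activator also known as PA28 gamma, was higher at 4 years. Its estimated counts are not all whole numbers, so reads may have been shared with another locus. PSME3 had 53.4, 53.7 and 58.4 CPM at 6 months, 142.5, 51.1 and 78.3 CPM at 18 months and 212.2, 206.3 and 147.7 CPM at 4 years. Replicate 2 of 18 months lay below all 6-month libraries and the other 2 above them. The log2 fold change was 0.72 ± 0.34 at 18 months (adjusted p = 0.0943), and 1.12 without that low replicate (adjusted p = 0.00253), and it was 1.78 ± 0.35 at 4 years (adjusted p = 0.00151). From 18 months to 4 years the difference was 1.06 ± 0.34 (adjusted p = 0.174, and 0.0067 without replicate 1 of 18 months, the one closest to 4 years). In both cases the library left out is one whose removal widens the difference. The log2 ratio of PSME4 to PSME3 counts was 0.79 ± 0.07 at 6 months, 2.10 ± 0.18 at 18 months and 1.72 ± 0.38 at 4 years (exact permutation test, p = 0.0107, the same after adjustment). In counts, the PSME4 level relative to PSME3 was thus highest in the 18-month group, with 18 months and 4 years overlapping. Per length, PSME3 had on average 14.0 FPKM at 6 months, 42.4 FPKM at 18 months and 94.9 FPKM at 4 years. PSME4 had 10.5, 55.7 and 86.4 FPKM. The rise of the count ratio from 6 months to 4 years was therefore not clear in FPKM, where no ratio was tested.

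PSME1 (ENSBTAG00000021395) and PSME2 (ENSBTAG00000005814), which together form the interferon-induced PA28 ring, fell together. PSME1 had 486.0, 426.5 and 410.2 CPM at 6 months, 79.5, 174.1 and 122.0 CPM at 18 months and 55.5, 59.4 and 52.9 CPM at 4 years. PSME2 had 147.2, 116.3 and 115.3 CPM, then 18.7, 55.3 and 39.8 CPM, then 14.6, 17.3 and 12.9 CPM. Neither gene overlapped between any 2 ages. PSME1 fell by 1.82 ± 0.27 and 2.98 ± 0.28 on the log2 scale at 18 months and 4 years (adjusted p = 0.000598 and 5.94e-05), and PSME2 by 1.73 ± 0.35 and 3.08 ± 0.37 (adjusted p = 0.00274 and 0.000139). They are close neighbours in the RefSeq yak annotation, with EMC9 between them. As a share of the summed activator FPKM, PSME1 went from 70.6% ± 0.73 (SD, n = 3) at 6 months to 46.2% ± 14.6 and 21.7% ± 0.76, and PSME2 from 24.3% ± 1.12 to 16.8% ± 7.27 and 6.93% ± 0.59. PSME3 went from 2.94% ± 0.39 to 16.1% ± 11.2 and 37.3% ± 5.13, and PSME4 from 2.19% ± 0.32 to 20.9% ± 10.8 and 34.1% ± 4.69. Between 6 months and 4 years the mean of PSME3 went from 55.15 to 188.7 CPM, but from 14.01 to 94.89 FPKM. The PSME3 share thus depends on the unit used, and the reason was not tested. The 7 peritubular and fibroblast markers summed to 1505 to 1869 CPM, 227.5 to 848 CPM and 233 to 260.8 CPM at the 3 ages. These sums and those of the Sertoli and Leydig markers were higher in every 6-month library than in any older one, and their part in the PSME1 and PSME2 levels was not tested.

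PSMF1 (ENSBTAG00000018417), known as PI31, binds the core and inhibits it in vitro. It had 73.8, 96.5 and 103.1 CPM at 6 months, 372.1, 160.0 and 242.0 CPM at 18 months and 439.5, 410.8 and 341.0 CPM at 4 years. The older libraries all stood above the 6-month ones, with the 18-month replicates again in the order of the meiotic markers. PSMF1 rose by 1.5 ± 0.30 at 18 months (adjusted p = 0.00278) and by 2.12 ± 0.31 at 4 years (adjusted p = 0.000339). Per length it was the most abundant proteasome RNA at 4 years, with 305.4 FPKM ± 27.1, ahead of PSMA6 with 259.3 FPKM and PSMD8 with 234.3 FPKM. At 6 months that place was held by PSME1 with 339.9 FPKM ± 36.1, followed by PSMB1 with 230.4 FPKM and PSMB3 with 221.2 FPKM.

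**Figure D4:**
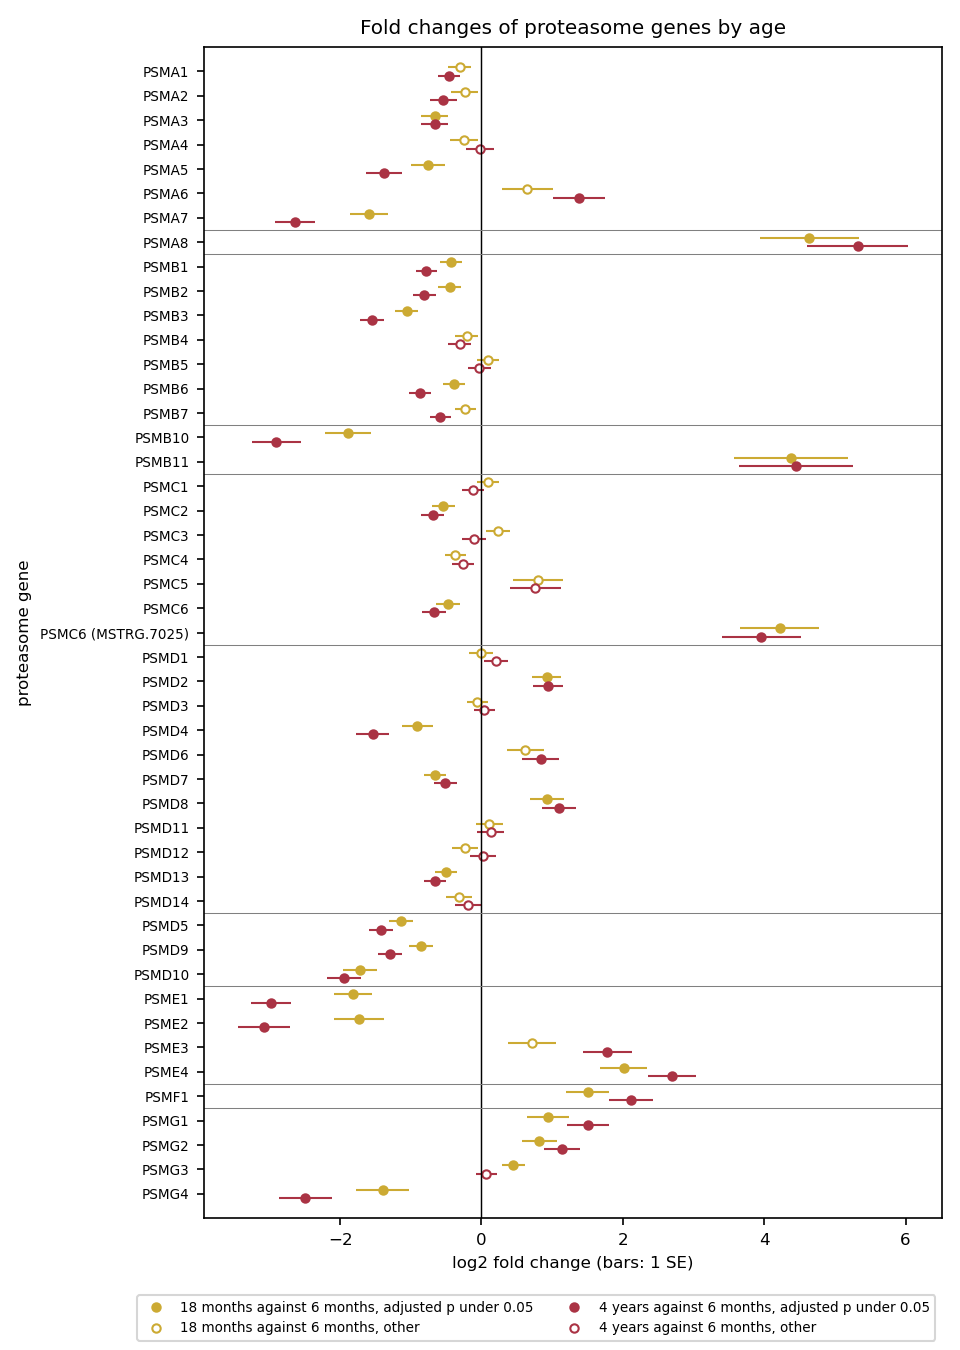
Log2 fold change of each tested proteasome gene at 18 months (yellow) and 4 years (red) against 6 months, with bars of 1 SE, filled where the adjusted p was under 0.05, and grouped by role with grey lines. The 6 ATPases other than the MSTRG.7025 locus lie between -0.69 and 0.80, while PSMA8, PSMB11 and that locus exceed 3.9 and PSME1, PSME2, PSMB10 and PSMA7 lie below -1.5 at both ages.

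The 19S ATPases, which unfold the substrate and drive it into the core, changed little. PSMC2 fell by 0.54 ± 0.16 at 18 months and 0.69 ± 0.16 at 4 years (adjusted p = 0.0151 and 0.00347), and PSMC6 by 0.48 ± 0.17 and 0.67 ± 0.17 (adjusted p = 0.0353 and 0.00611). The 18-month calls were lost in 4 of 15 alternative fits for PSMC2 and 12 of 15 for PSMC6, and the 4-year calls in 1 each, with library size alone. PSMC1, PSMC3, PSMC4 and PSMC5 were not called in either comparison. PSMC1 had the highest FPKM of the 19S subunits at 18 months (232.5 FPKM), and the highest 19S subunit exceeded the lowest 14.9-fold, 14.6-fold and 13.9-fold at the 3 ages. A second locus with the PSMC6 symbol, the StringTie locus MSTRG.7025, had estimated counts of 4, 3 and 1 at 6 months, 73, 48 and 82 at 18 months and 73, 42 and 48 at 4 years. It rose by 4.22 ± 0.56 and 3.96 ± 0.56 (adjusted p = 0.000364 and 0.000285), opposite to PSMC6 itself, but both loci hold counts that are not whole, and what the locus encodes is uncertain.

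Of the 11 non-ATPase subunits of the cap, 3 were higher and 3 lower at 4 years, where 36.7% and 37.2% of all genes were. PSMD2 (ENSBTAG00000005660), the large base subunit that docks ubiquitin receptors, had 269.5, 280.7 and 279.9 CPM at 6 months, 604.9, 402.8 and 562.5 CPM at 18 months and 623.7, 493.3 and 471.0 CPM at 4 years. PSMD8, a lid subunit, had 174.6, 154.9 and 183.9 CPM, then 401.4, 221.0 and 356.4 CPM, then 407.8, 385.6 and 310.1 CPM. Both stood above the 6-month range in every older library. PSMD2 rose by 0.92 ± 0.21 and 0.94 ± 0.21 (adjusted p = 0.00502 and 0.00322), PSMD8 by 0.93 ± 0.24 and 1.10 ± 0.24 (adjusted p = 0.00952 and 0.00295), and the lid subunit PSMD6 by 0.84 ± 0.26 at 4 years (adjusted p = 0.0154, and 0.0522 without replicate 2 of 6 months).

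PSMD4 (ENSBTAG00000006101), a ubiquitin receptor of the cap, went down. It had 373.0, 349.7 and 392.9 CPM at 6 months, 144.8, 264.0 and 183.8 CPM at 18 months and 131.9, 130.1 and 120.5 CPM at 4 years, with no overlap between ages. It fell by 0.91 ± 0.22 and 1.54 ± 0.23 (adjusted p = 0.00726 and 0.000354). ADRM1, the other main ubiquitin receptor of the cap, rose by 2.11 ± 0.27 and 2.96 ± 0.28 (adjusted p = 0.000316 and 5.93e-05), from 16.2 CPM ± 1.91 (SD, n = 3) at 6 months to 69.8 CPM ± 17.8 and 126 CPM ± 33.4. The lid subunit PSMD13 had log2 fold changes of -0.5 ± 0.16 and -0.66 ± 0.16 (adjusted p = 0.0245 and 0.0052), and the lid subunit PSMD7 of -0.66 ± 0.16 and -0.51 ± 0.16 (adjusted p = 0.00658 and 0.016). Of 15 alternative fits, 8 lost the PSMD13 call at 18 months and 5 the PSMD7 call at 4 years. PSMD14, the deubiquitinase of the lid, was not called, with 47.6 CPM ± 6.30, 38.2 CPM ± 5.75 and 41.8 CPM ± 4.95 at the 3 ages, and neither were PSMD1, PSMD3, PSMD11 and PSMD12.

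Of the chaperones that hold 19S base modules during assembly, the 3 with PSM symbols were lower at both ages. Of all genes, 27.1% were lower at 18 months and 37.2% at 4 years. PAAF1, another of them, had log2 fold changes of 0.41 ± 0.17 at 18 months and 0.44 ± 0.17 at 4 years (adjusted p = 0.0644 and 0.0416), and so was called higher at 4 years. PSMD10 (ENSBTAG00000013721), known as gankyrin, had 74.1, 53.5 and 76.4 CPM at 6 months, 15.2, 22.9 and 23.9 CPM at 18 months and 18.4, 15.04 and 19.4 CPM at 4 years. It fell by 1.72 ± 0.24 and 1.95 ± 0.24 (adjusted p = 0.000424 and 0.000151), with some of its counts not whole. PSMD5 fell by 1.14 ± 0.17 and 1.42 ± 0.17 (adjusted p = 0.000574 and 0.000135), and PSMD9 by 0.86 ± 0.17 and 1.29 ± 0.17 (adjusted p = 0.00227 and 0.000196). Their summed level was 318.7 CPM ± 45.3, 146.8 CPM ± 19.9 and 115.7 CPM ± 3.797 at the 3 ages.

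The 4 chaperones of the core divided. PSMG1 and PSMG2, which pair to start the alpha ring, had log2 fold changes of 0.94 ± 0.30 and 0.82 ± 0.25 at 18 months (adjusted p = 0.0234 and 0.0203) and 1.51 ± 0.30 and 1.14 ± 0.26 at 4 years (adjusted p = 0.00178 and 0.00318). The 18-month calls were lost in 4 of 15 alternative fits for PSMG1 and 3 of 15 for PSMG2. PSMG1 overlapped between 6 and 18 months, where replicate 2 had 30.5 CPM and the highest 6-month library 31.0 CPM. The partners PSMG3 and PSMG4, which also act on the alpha ring, went different ways. PSMG4 (ENSBTAG00000031249) had 14.9, 12.4 and 11.8 CPM at 6 months, 2.95, 7.70 and 4.18 CPM at 18 months and 2.32, 1.86 and 2.77 CPM at 4 years, and fell by 1.40 ± 0.37 and 2.49 ± 0.38 (adjusted p = 0.00999 and 0.00044). PSMG3 had a log2 fold change of 0.45 ± 0.16 at 18 months (adjusted p = 0.0315), a call lost in 7 of 15 alternative fits, and had a log2 fold change of 0.07 ± 0.15 at 4 years (adjusted p = 0.701).

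The summed level of all 47 tested genes was 5876 CPM ± 247 (SD, n = 3) at 6 months, 5414 CPM ± 475 at 18 months and 5529 CPM ± 340 at 4 years, and these ranges overlapped. The 7 constitutive beta subunits together had 1433 CPM ± 53.9, 1104 CPM ± 59.99 and 911 CPM ± 65.3, and the 7 constitutive alpha subunits 693 CPM ± 64.9, 502 CPM ± 51.7 and 530 CPM ± 35.3. The 11 non-ATPase cap subunits had 1495 CPM ± 72.7, 1683 CPM ± 203 and 1709 CPM ± 139. All these sums rest on TMM scaling, and library size alone shifted the median 18-month change of all genes from 0.02 to 0.43. Without PSMA8 and PSME4, 45 genes were tested, of which 8 were higher and 19 lower at 18 months, with a median log2 fold change of -0.25, and 10 were higher and 22 lower at 4 years, with a median of -0.31. Over all genes, 32.7% were higher and 27.1% lower at 18 months, with a median of 0.02. At 4 years, 36.7% of all genes were higher and 37.2% lower, with a median of -0.06.

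Other genes of the pathway were counted from 3 lists, to be read beside 32.7% of all genes higher and 27.1% lower at 18 months and 36.7% and 37.2% at 4 years. Of 17 partners of the proteasome, 16 were tested, and 5 were higher and 4 lower at 18 months and 7 higher and 6 lower at 4 years. NGLY1, the deglycosylase that matures the transcription factor NFE2L1, rose by 2.34 ± 0.28 at 4 years (adjusted p = 0.000133), and NFE2L1, which drives proteasome genes under stress, fell by 1.36 ± 0.18 (adjusted p = 0.000193). UBE3C, a ubiquitin ligase bound to the proteasome, rose by 1.49 ± 0.21 (adjusted p = 0.000305). Of 15 genes for ubiquitin, its activating enzymes and the shuttles that carry tagged proteins, 4 were higher and 4 lower at 18 months and 6 higher and 5 lower at 4 years. RPS27A, a fusion of ubiquitin and a ribosomal protein, fell by 3.54 ± 0.30 (adjusted p = 4.22e-05). Of 15 ubiquitin ligation and removal genes known from germ cells, 14 were tested, and 9 were higher and 2 lower at 18 months and 10 higher and 2 lower at 4 years. KLHL10 and TRIM69 rose by 9.94 ± 1.25 and 9.7 ± 0.89 at 4 years (adjusted p = 0.00017 and 5.11e-05). Their 6-month levels were very low, at 0.43 CPM ± 0.46 and 0.12 CPM ± 0.10 (SD, n = 3), so the size of these rises is uncertain. The median log2 fold changes of the 3 lists at 4 years were 0.33, -0.1 and 2.51, beside -0.06 over all genes.

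Circular RNAs, which arise when an exon is spliced back onto an earlier one, gave another readout of the same libraries. The circRNA table held 73679 entries, of which 111 came from 31 proteasome genes with 1011 back-splice reads in all. PSME4 gave the most, 29 circRNAs with 294 reads, spread as 23, 16 and 26 reads at 6 months, 37, 62 and 29 reads at 18 months and 32, 38 and 31 reads at 4 years. PSMA8 gave 1 circRNA, with no reads at 6 months, 2, 7 and 4 reads at 18 months and none at 4 years, and PSMA7 had 6 reads in all. Library totals lay between 119786 and 227150 back-splice reads. Only 2 circRNAs of proteasome genes passed the filter, 1 of PSMA6 with 102 reads and 1 of PSMD1 with 80 reads, and edgeR called neither at 18 months, where 5.26% of 3877 circRNAs were called, nor at 4 years, where 21% were, both against 6 months, nor between the older ages, where 0% were. Their unadjusted p was not under 0.05 in any comparison. The PSMA6 circRNA had a log2 fold change of 0.45 ± 0.64 at 4 years (adjusted p = 0.644), and differences of the size seen in its gene could not be told from 0 at this depth.

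The authors' deposited table of genes that differ between 6 months and 4 years listed 10565 genes, beside 22183 in the gene table. Of the 50 proteasome identifiers it listed 23, 13 higher and 10 lower at 4 years, and 22 of them were called here in that direction. The authors' table for 6 and 18 months listed 7668 genes and 15 of the 50, of which 14 were called here in the direction given. All listed proteasome genes had a log2 ratio of at least 1.02 in size, whereas the calls here had no fold cut. The gene not called here was PSMC5 in both. The authors' deposited table for 18 months and 4 years listed none of the proteasome genes.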

How the data were processed

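Gene counts and FPKM of 9 long RNA libraries were used. Build UMD3.1, HISAT2 2.1.0, fastp 0.18.0 and StringTie 1.3.4 are named in the processing notes of the submitters, with no roles. UMD3.1 is a cattle build, and the Ensembl identifiers of the genes are those of cattle. Levels of genes that differ between yak and cattle may be affected, also where different genes are compared in FPKM. How genes were counted is not given in the sources used here. Per the file headers the values are counts, taken as estimated counts because 3137 genes have values that are not whole, and they were rounded. The FPKM values the authors deposited are scaled per length and library, and served for levels between genes. The circRNA table the authors deposited holds counts of back-splice reads. The authors' deposited tables of differing genes give a log2 ratio and a p-value with an FDR, and were only set beside the calls made here.

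Counts were fitted in edgeR 4.0.16 (R 4.3.3) with all 9 libraries, age as the only factor, filterByExpr and TMM scaling, and tested with glmQLFit and glmQLFTest. Calls use a Benjamini-Hochberg adjusted p under 0.05 over all genes tested. SE is that of the log2 fold change. DESeq2 1.42.0 served as an alternative. The steps were tested on simulated counts. Ratios used counts plus 0.5 and exact two-sided permutation tests. The labels name separate animals for the replicates, and every gene row had an identifier. Gene symbols come from the table, and all 46 were found in the RefSeq annotation. Strand use in counting is not stated, so overlapping and neighbouring genes may share reads.

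The proteasome genes, the lists and the tests were chosen with earlier results of these data known. Of each role and comparison, up to 3 called genes per direction with the largest fold change are named with values, together with PSMA8, PSME4, PSMA7, PSME3, PSMB10 and PSMB7. The alternatives tried were other scaling, no low-count filter, DESeq2, a fit of only the ages compared, a replicate block, a 2-fold rule and each library left out in turn. Values of some single genes of the pathway lists are not reported here.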

Additional observations from a re-analysis of the deposited data

How the results depend on the processing

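Of the genes called, 7 of 10 higher and 7 of 19 lower at 18 months, and 11 of 12 higher and 14 of 22 lower at 4 years, were called in every alternative fit other than the 2-fold rule. PSMA8, PSME4, PSMF1, PSMA7, PSMB10, PSME1 and PSME2 were among them in both comparisons. Library size alone gave 17 higher and 7 lower at 18 months and 14 lower at 4 years, turned PSMB6 at 18 months to 0.01 and called PSME3 at 18 months (1.09, adjusted p = 0.012). The 2-fold rule left 5 higher and 8 lower at 18 months and 11 lower at 4 years. DESeq2 called 3 lower between 18 months and 4 years, among them PSMA7 (-0.95). Leaving out a library gave 7 to 13 higher and 11 to 17 lower at 18 months, with 11 lower without replicate 1 and 12 without replicate 3 of 6 months. Between 18 months and 4 years it gave 0 to 5 higher and 0 to 11 lower. Calls came only without replicate 1 of 18 months, which stood closest to the 4-year animals in PSMA7, PSMB10, PSME3 and PSME4. Values between these 2 ages ranged from -1.3 to -0.73 for PSMA7, -1.29 to -0.58 for PSMB10 (adjusted p = 0.0101 without replicate 1), 0.78 to 1.55 for PSME3 and 0.38 to 1.06 for PSME4, and PSME3 at 18 months from 0.23 to 1.12. Same-numbered libraries deviated together with r from -0.14 to 0.1, which was not set against differently numbered pairs. The numbers were taken only to name animals, as in the labels. With the replicate block, 9 were higher and 15 lower at 18 months and 12 and 21 at 4 years, and PSMA8 stood at 4.68 and 5.34. With a minimum of 10 reads, 26 circRNAs of proteasome genes were tested and none was called. Over all 19221 circRNAs tested, 553 were called at 18 months and 1359 at 4 years, both against 6 months, and 50 between the older ages. Of the 26, 1, 5 and 2 had an unadjusted p under 0.05 in the 3 comparisons. Depth limits PSMA8, PSMB11, MSTRG.7025, KLHL10 and TRIM69 at 6 months and all circRNAs.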
